A study of Mus musculus with 4 samples.

Results

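Open chromatin was examined at 7 mouse genes of TGF-β1 production and storage and of integrins, namely Tgfb1, Lrrc32, Furin, Ltbp3, Itgav, Itgb8 and Itgae. ATAC-seq, in which a transposase cuts and tags DNA that is not wrapped in nucleosomes, gave a list of peaks for each of 4 libraries. All peaks that fell within a gene's record on mm10 or within 20 kb on either side were taken, and peaks that shared at least 1 base in different lists were merged into 1 region. This gave 77 regions at the 7 genes, of 93679 regions in the genome. The genes were chosen by name and function and not by a threshold on the calls or ranks of their peaks.

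The cells were naive CD4+ T cells (CD62Lhigh CD44low CD25-) from the spleen of male wild-type C57BL/6 mice, 7 weeks old by the labels. All of them were activated for 48 h in human TGF-β1 (5 ng/ml) and mouse IL-2 (10 ng/ml), conditions that polarize towards induced regulatory T cells (iTregs). Activation was by plate-bound anti-CD3 at 5 µg/ml, with soluble anti-CD28 at 1 µg/ml. The iTreg+IL-4 group, with 15 ng/ml of mouse IL-4, and the iTreg+PBS group, with PBS instead, have 2 libraries each. Both conditions thus received the finished TGF-β1 protein from outside, and chromatin was read at this time point only.

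TGF-β1 is made as a precursor that stays inactive after it is cut. Furin is the protease that separates the mature cytokine from its propeptide, and the propeptide then folds around the cytokine as a cage. Lrrc32 encodes GARP, which holds the caged cytokine on the surface of regulatory T cells, whereas LTBP3, the product of Ltbp3, is among the proteins that tether it in the extracellular matrix. The integrin αvβ8, a pair of the products of Itgav and Itgb8, pulls on the cage and frees the cytokine. Itgae encodes CD103, the integrin chain αE, which pairs with β7 to bind E-cadherin on epithelial cells and is itself known to be induced by TGF-β.

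The sequence at the centre of 5 regions is printed here, each 200 bases from GRCm38 (mm10), forward strand. They are regions that the results below turn on: the strongest Tgfb1 and Furin regions within 1 kb of those genes' own start sites, a distal Lrrc32 region whose ranks did not overlap between conditions, the only region with peaks in both libraries of 1 condition and in none of the other, and the only region in all 4 libraries with a STAT6-type palindrome. Capitals mark matches, on either strand, to motifs of transcription factors, which are spelled out further on, and the letters in lower case hold no such match.
Tgfb1 region near an internal start site, chr7:25689397-25689596: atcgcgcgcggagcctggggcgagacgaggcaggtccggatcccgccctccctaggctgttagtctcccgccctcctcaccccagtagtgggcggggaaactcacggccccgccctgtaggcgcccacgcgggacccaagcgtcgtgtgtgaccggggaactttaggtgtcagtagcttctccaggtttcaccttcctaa
Lrrc32 distal region, chr7:98513346-98513545: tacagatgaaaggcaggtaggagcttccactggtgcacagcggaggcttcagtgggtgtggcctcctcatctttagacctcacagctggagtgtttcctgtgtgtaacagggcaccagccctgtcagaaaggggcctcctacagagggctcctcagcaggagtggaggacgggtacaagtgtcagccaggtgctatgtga
Furin strongest region, chr7:80404145-80404344: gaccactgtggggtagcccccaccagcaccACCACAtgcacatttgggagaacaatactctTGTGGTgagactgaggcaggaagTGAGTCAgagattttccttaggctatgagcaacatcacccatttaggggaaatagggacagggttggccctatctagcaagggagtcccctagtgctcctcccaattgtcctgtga
Furin region called only without IL-4, chr7:80402814-80403013: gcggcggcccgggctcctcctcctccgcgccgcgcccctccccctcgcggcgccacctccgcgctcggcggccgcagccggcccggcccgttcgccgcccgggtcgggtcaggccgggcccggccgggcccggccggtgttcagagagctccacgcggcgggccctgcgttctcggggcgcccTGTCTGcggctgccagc
Furin region with a STAT6-type palindrome, chr7:80410409-80410608: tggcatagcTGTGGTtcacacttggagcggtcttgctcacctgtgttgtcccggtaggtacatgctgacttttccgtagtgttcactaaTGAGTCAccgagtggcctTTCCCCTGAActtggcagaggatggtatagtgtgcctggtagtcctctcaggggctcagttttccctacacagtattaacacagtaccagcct

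There were 77064 and 56645 peaks in the iTreg+PBS lists (replicates 1 and 2) and 78670 and 67743 in the iTreg+IL-4 lists (in the same order, as are all pairs of values from here on). They hold no read numbers, and how deeply the libraries were sequenced is unknown. A missing peak means that no enrichment passed the peak caller's threshold at that depth, not that the chromatin was closed. In bulk cells, a peak open in more cells and a peak more open per cell cannot be told apart. Each peak was therefore described by its rank, the percentage of peaks in the same list with a higher −log10 q (the caller's significance), so that a lower rank is a stronger peak. With 2 libraries against 2, the exact two-sided permutation test used here cannot give a p below 0.333. All 6 T cell genes checked (Cd4, Cd3e, Cd3g, Lck, Thy1 and Il2ra) had a peak within 1 kb of a start site in all 4 libraries. The B cell gene Cd79a and the myeloid gene Csf1r had none in any library, but the myeloid gene Cd14 had a peak in all 4.

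A small majority of the regions at these genes was called in every library. Of the 77 regions, 42 (54.5%) had a peak in all 4 libraries, beside 51.0% of all regions in the genome. A further 12 (15.6%, beside 13.7%) had a peak in 3 libraries, 9 (11.7%, beside 13.7%) in 2 and 14 (18.2%, beside 21.6%) in 1. No region had peaks in both libraries with IL-4 and none without it, a pattern that 2.60% of all regions had. The reverse pattern, a call only without IL-4, was seen for 1 region, in an intron of Furin, and for 0.699% of all regions. With 77 regions these counts are too small to set the genes apart from the rest of the genome.

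Presence differed more between replicates than between conditions. Of the regions, 67 and 51 had a peak in the iTreg+PBS libraries, and 63 and 55 in the iTreg+IL-4 libraries. Those are 87.0%, 66.2%, 81.8% and 71.4% of the regions, and over the genome the shares were 81.2%, 58.9%, 82.9% and 71.1%. In either set, the shortest list, iTreg+PBS replicate 2, called the fewest. Peaks in both libraries numbered 1 and in neither numbered 2 were found at 6 regions (7.79%, beside 7.60% of all regions). A call in every library but iTreg+PBS replicate 2 was seen at 7 regions (9.09%, beside 9.97%), and in every library but iTreg+IL-4 replicate 2 at 5 regions (6.49%, beside 2.24%).

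**Figure D1:**
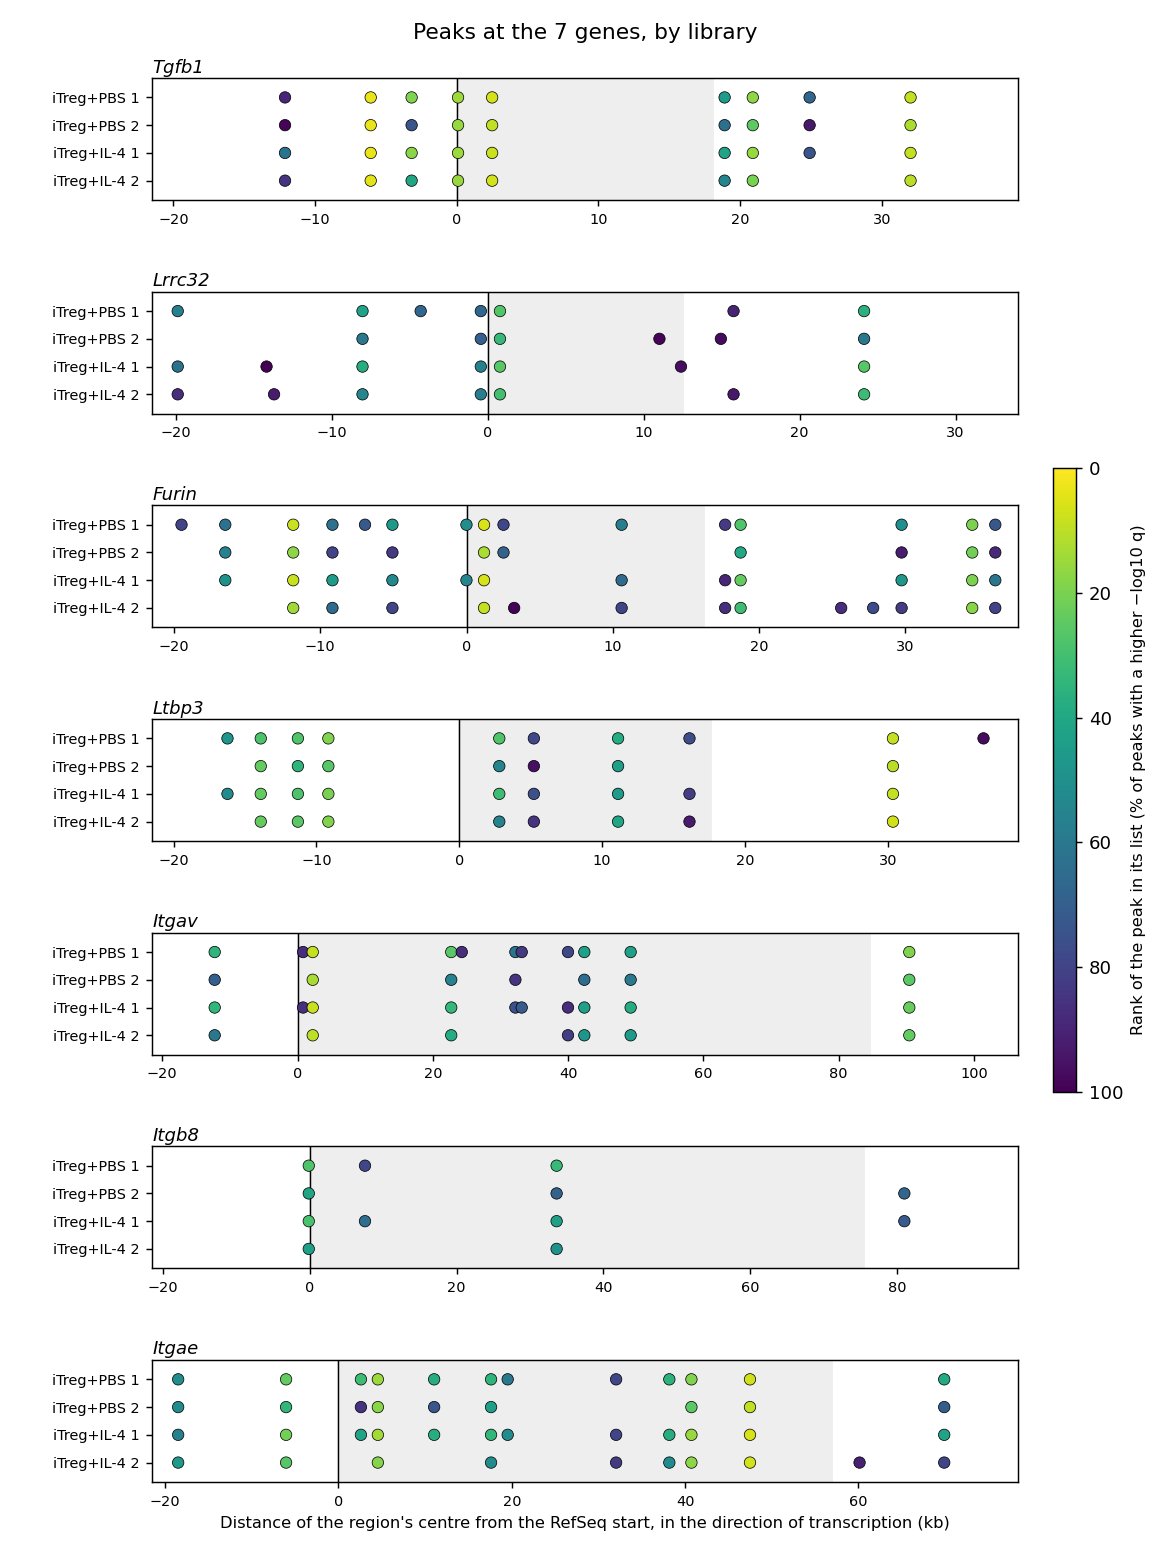
Peaks at each gene, with the distance of the region's centre from the RefSeq start along the x axis (kb, in the direction of transcription) and a row for each library. The colour gives the rank of the peak in its list (0 is the strongest), grey marks the gene record and the vertical line its start. Of the 77 regions, 42 have a point in all 4 rows, and Furin has the only region with points in both iTreg+PBS rows and in neither iTreg+IL-4 row.

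The total extent of open chromatin at the 7 genes overlapped between conditions. Peaks took up 39426 and 29207 bases in the iTreg+PBS libraries, and 38635 and 32374 bases in the iTreg+IL-4 libraries. The means were 34317 ± 7226 bases without IL-4 and 35505 ± 4427 bases with IL-4 (SD, n = 2 each), a difference of 1188 bases that was smaller than the pooled SD of 5992 (exact permutation test, p = 1). The number of peaks was 69 and 55 without IL-4 and 65 and 57 with it (62 ± 9.90 and 61 ± 5.66, SD, n = 2 each; difference -1, exact permutation test, p = 1). For both measures the iTreg+IL-4 values lay inside the range of the iTreg+PBS values.

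Taken gene by gene, the bases inside peaks overlapped between conditions at all 7 genes. In the mean of the libraries Itgae and Furin held the most, 5277 to 7707 and 5100 to 7825 bases per library, although Tgfb1 held the most in iTreg+PBS replicate 2, with 5598. Itgb8 held the least, 1760 to 2458. In the full lists with 20 kb on each side, the largest difference relative to its spread was that of Lrrc32. Its peaks covered 3507 and 2710 bases in the iTreg+PBS libraries and 3397 and 3769 bases in the iTreg+IL-4 libraries, a difference of 474.5 bases beside a pooled SD of 440 (exact permutation test, p = 0.667, adjusted p = 1 over the 7 genes). Adjusted p was 1 for the other 6 genes too. The difference at Lrrc32 was smaller than its pooled SD with 10 kb on each side (13 bases, pooled SD 148) and without flanks (110.5 bases, pooled SD 142).

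**Figure D2:**
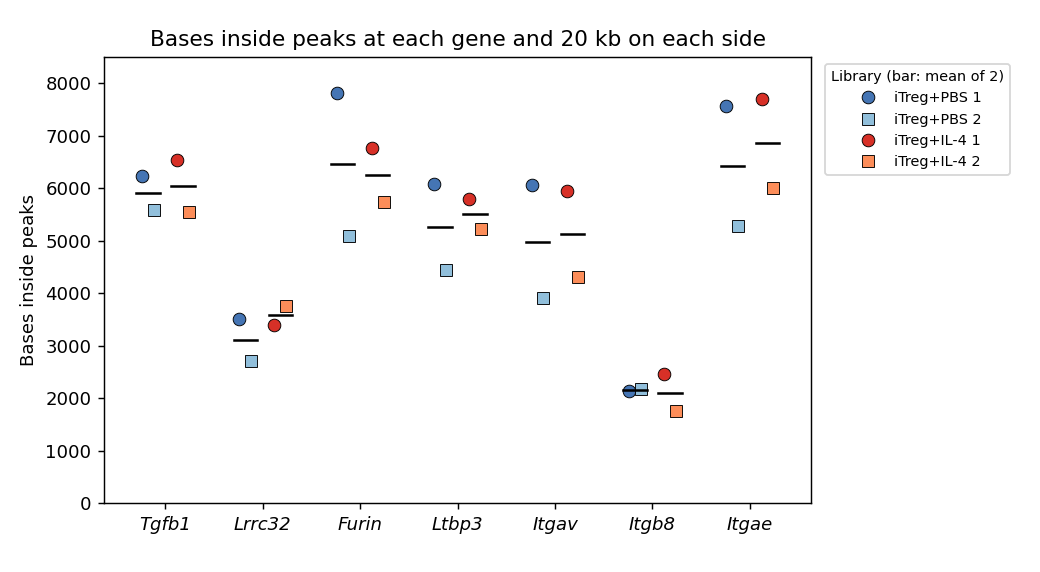
Bases inside peaks (y axis) at each of the 7 genes with 20 kb on each side, a point for each library and a bar for the mean of the 2 libraries of a condition. The points of the conditions overlap at every gene; at Furin the lowest and the highest point, 5100 and 7825 bases, are both iTreg+PBS.

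Tgfb1, the gene of the cytokine itself (chr7:25687002-25705077, forward strand), had the largest share of regions called everywhere. Of its 9 regions, 8 had a peak in all 4 libraries and the remaining region in 3. Its first start site lay inside a peak in every library (region chr7:25686645-25687540). The ranks of that peak were 14.8 and 15.7 without IL-4 against 15.0 and 15.6 with IL-4, a difference of 0.06 between the condition means. A stronger peak was centred 2495 bases downstream, within 1 kb of the start of a shorter Tgfb1 transcript but not over it (chr7:25689056-25689938). It ranked 6.50 and 9.24 without IL-4 against 8.00 and 6.99 with IL-4, and the conditions overlapped.

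The 2 extremes around Tgfb1 belonged to its neighbours. The region with the best mean rank was the start site of B9d2, 6072 bases upstream, with ranks of 3.23 and 3.36 without IL-4 against 3.13 and 4.54 with IL-4. In the full lists, the largest difference of mean rank was at the start site of Tmem91, centred 12119 bases upstream, with ranks of 89.7 and 99.0 without IL-4 against 61.6 and 84.9 with IL-4. The mean rank differed by -21.1 (pooled SD 12.6), both iTreg+IL-4 peaks being stronger, but this was among the weakest peaks of the iTreg+PBS lists. Ranked among the regions called in all 4 libraries it differed by -8.06, less than a region 3185 bases upstream of Tgfb1 (-13.9, and -13.0 with lists of equal length), whose ranks overlapped. The −log10 q of the Tmem91 region was 5.00 and 1.96 without IL-4 against 14.9 and 5.94 with IL-4.

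Lrrc32, whose product GARP presents latent TGF-β1 on the cell surface, held 2 of the 6 regions that were stronger in both iTreg+IL-4 libraries than in either iTreg+PBS library. The gene (chr7:98489305-98501831, forward strand) had 12 regions, 4 of them in every library, 1 in 3, 1 in 2 and 6 in 1. Around the first start site were 2 regions. The upstream region (chr7:98488374-98489381), whose centre lies 428 bases before the start, ranked 66.8 and 69.6 without IL-4 against 56.6 and 57.9 with IL-4, a difference of -11.0 (pooled SD 1.55). Its −log10 q was 13.2 and 7.98 without IL-4 against 17.8 and 16.7 with IL-4. The second region (chr7:98489639-98490571), in an intron, was stronger and overlapped between conditions, with ranks of 27.3 and 32.9 without IL-4 against 25.8 and 29.7 with IL-4; it was the strongest region of Lrrc32 in the mean of 4 libraries.

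The largest difference of mean rank at Lrrc32 was in intergenic DNA, centred 24141 bases downstream of the start and past the end of the gene (chr7:98513167-98513726). This distal region ranked 36.2 and 59.9 without IL-4 against 26.3 and 31.8 with IL-4, a difference of -19.0 (pooled SD 12.2). Its −log10 q was 45.4 and 11.0 without IL-4 against 69.7 and 46.8 with IL-4. When every list was shortened to its 56645 strongest peaks, the ranks were 49.3 and 59.9 without IL-4 against 36.5 and 38.0 with IL-4, and still did not overlap; nor did they by height or among the regions called in all 4 libraries. The upstream region did overlap with lists of equal length (90.9 and 69.6 against 78.5 and 69.2) and among the regions called in all 4 libraries, but not by height. For each of these regions p was 0.333, the smallest possible, and the adjusted p was 1.

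Furin, the gene of the protease that matures TGF-β1 (chr7:80389194-80405441, reverse strand), had the densest peaks of the 7, with 18 regions or 32.0 per 100 kb. Of the same windows around all protein-coding genes, 99.9% held fewer per 100 kb. Within 20 kb the windows also hold other genes, and 4 of the 18 regions lay at a start site of a neighbour and not of Furin. The strongest region (chr7:80403778-80404713) was centred 1196 bases inside the gene, in an intron. It lay within 1 kb of start sites of Furin, including the first, and of the annotated gene Gm44851. It ranked 5.80 and 12.6 without IL-4 against 6.08 and 8.93 with IL-4.

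The first start site of Furin was covered by a peak in replicate 1 of both conditions and in replicate 2 of neither (chr7:80405345-80405550, ranks 50.9 without and 54.6 with IL-4). In the other libraries the nearest peak was the strong intronic region, 815 bases away in iTreg+PBS replicate 2 and 791 bases away in iTreg+IL-4 replicate 2. The peak over this start site therefore divided the libraries by replicate number and not by condition. Within 1 kb of the same start site every library had a peak.

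The only region of the 77 with peaks in both libraries of 1 condition and in none of the other lay farther inside the gene, centred 2527 bases from the start of Furin (chr7:80402749-80403079, intron). Its centre was 152 bases from another annotated start site of Furin. The peaks of this region were weak. In iTreg+PBS replicate 1 the peak ran from 80402749 to 80402928, with a −log10 q of 8.26, a pileup height of 86 and a rank of 78.6. In iTreg+PBS replicate 2 it ran from 80402825 to 80403079, with a −log10 q of 8.24, a height of 46 and a rank of 69.0. The peaks shared 104 bases, which is 57.8% of the first and 40.8% of the second, and the sequence printed for this region is 84% G and C. With the lists shortened to equal length, or with a shared stretch of 50% of each peak required, the call only without IL-4 was lost. Near it, another region within 1 kb of a Furin start site (centred 3256 bases inside the gene) had a peak in 1 library, iTreg+IL-4 replicate 2, with a rank of 99.5. The largest difference of mean rank at Furin in the full lists was 9169 bases upstream, in intergenic DNA, where ranks were 62.9 and 79.8 without IL-4 against 45.0 and 65.8 with IL-4 (difference -16.0, pooled SD 13.4), and these overlapped. They did not overlap, and were stronger with IL-4, with lists of equal length (85.6 and 79.8 against 62.5 and 78.7) or ranked among the regions called in all 4 libraries (86.7 and 88.6 against 70.0 and 84.5).

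Ltbp3, the gene of a matrix tether of latent TGF-β (chr19:5740900-5758536, forward strand), had 10 regions, 7 of them in all 4 libraries. No peak lay within 1 kb of its first start site in any library. The nearest was 2575 and 2640 bases away without IL-4 against 2571 and 2652 bases away with IL-4. Its start-site peaks belonged to shorter transcripts that begin inside the gene. The strongest of these (chr19:5743475-5743926) ranked 27.7 and 54.8 without IL-4 against 31.0 and 55.2 with IL-4. The replicates differed far more than the conditions. The region centred 5221 bases inside the gene, which also had the largest difference of mean rank at Ltbp3 in the full lists, ranked 78.2 and 96.0 without IL-4 against 75.7 and 85.0 with IL-4 (difference -6.79, pooled SD 10.0). Among the regions called in all 4 libraries its difference was -1.81, and that of the region named before it was 8.31, weaker with IL-4. A further region, centred 16113 bases inside the gene, ranked 76.6 in iTreg+PBS replicate 1 and 82.2 and 92.6 with IL-4, and was not called in iTreg+PBS replicate 2.

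The genes of the integrin chains that free TGF-β1 had a peak over their first GENCODE start sites in every library. From the RefSeq start of Itgav, the nearest peak was 709 and 1652 bases away without IL-4 against 709 and 1580 bases with IL-4. Itgav (chr2:83722303-83806917, forward strand) encodes αv and had 11 regions, 6 of them in all 4 libraries. The region over its GENCODE start site (chr2:83723883-83725219) was its strongest, with ranks of 8.73 and 13.0 without IL-4 against 8.48 and 10.1 with IL-4. The conditions overlapped there. The largest difference of mean rank in the full lists was in an intron (chr2:83771349-83771756), from ranks of 43.3 and 59.1 without IL-4 to 38.4 and 45.8 with IL-4 (difference -9.11, pooled SD 8.72), which overlapped as well. They did not overlap, and were stronger with IL-4, in lists of equal length (58.9 and 59.1 against 53.4 and 54.8) or among the regions called in all 4 libraries (67.0 and 68.7 against 61.4 and 63.5).

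Itgb8 (chr12:119162803-119238276, reverse strand) encodes β8, the partner of αv in that integrin, and was the most sparsely open of the 7. It had 4 regions in its window, or 3.46 per 100 kb, and 30.8% of the windows around protein-coding genes held fewer. The start site (chr12:119237800-119239046) had a peak in all 4 libraries, with ranks of 28.0 and 41.2 without IL-4 against 28.6 and 44.0 with IL-4, and was its strongest region. The only other region in all 4 libraries, in an intron centred 33632 bases inside the gene, ranked 32.8 and 68.8 without IL-4 against 42.6 and 49.7 with IL-4 (difference -4.63, pooled SD 18.4). With lists of equal length the differences were 6.56 at the start site and 2.62 in the intron, both weaker with IL-4, and among the regions called in all 4 libraries 7.32 and 2.21. In the full lists, at both, the spread between replicates was larger than the difference between conditions.

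Itgae (chr11:73090505-73147449, forward strand), the gene of CD103, had no peak within 1 kb of its annotated start site in any library, as was so for 33.6% of protein-coding genes. GENCODE gives it 1 start site, against 3 to 11 for the other 6 genes, and at its first start Ltbp3 had no peak within 1 kb either. The nearest peak to the Itgae start lay 2368 and 2424 bases away without IL-4 against 2366 and 3682 bases away with IL-4. Its window held 13 regions, 7 of them in all 4 libraries, and 9 of the 13 were centred in introns of Itgae, 4 of these in all 4 libraries. The region with the best rank (chr11:73137334-73138650) was the start site of Haspin, a gene that lies inside an Itgae intron, with ranks of 7.30 and 9.09 without IL-4 against 6.20 and 6.91 with IL-4 (difference -1.64, pooled SD 0.96). An intronic region 40729 bases inside the gene and at no start site (chr11:73130971-73131497) ranked 18.8 and 25.5 without IL-4 against 15.3 and 17.0 with IL-4 (difference -5.97, pooled SD 3.45). The ranks of these regions did not overlap between conditions, whichever of 4 ways of ranking was used (−log10 q, height, order among the regions called in all 4 libraries, or lists of equal length). For each, p was 0.333 and the adjusted p was 1. The largest difference near Itgae in the full lists went the other way, at the start site of P2rx5 downstream, from ranks of 39.1 and 70.4 without IL-4 to 42.2 and 79.6 with IL-4 (difference 6.14, pooled SD 24.4).

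**Figure D3:**
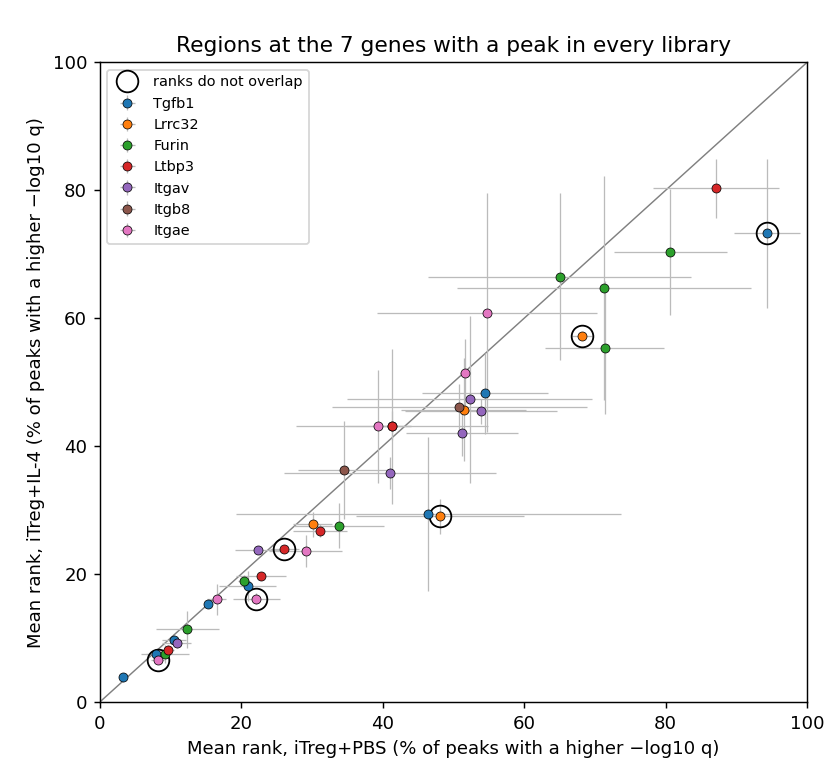
Mean rank of the 42 regions called in all 4 libraries, iTreg+PBS on the x axis and iTreg+IL-4 on the y axis (% of peaks in the list with a higher −log10 q), coloured by gene. Grey bars join the 2 libraries of a condition and the line marks equal ranks. The 6 circled regions, whose ranks do not overlap, all lie below the line, that is, stronger with IL-4. Of all regions called in all 4 libraries, 19.7% were stronger with IL-4 in this way and 5.18% weaker.

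Over the 42 regions called in all 4 libraries, the mean ranks overlapped between conditions. The mean rank was 31.6 and 45.3 in the iTreg+PBS libraries and 30.0 and 38.5 in the iTreg+IL-4 libraries (38.4 ± 9.69 and 34.2 ± 6.01, SD, n = 2 each). The difference of -4.20 was smaller than the pooled SD of 8.06 (exact permutation test, p = 0.667). It was 0.0565, of the opposite sign, with the lists shortened to equal length. The median difference was -2.54 at these regions and -2.05 over the 47767 regions called everywhere, and 33 regions were stronger and 9 weaker with IL-4. The 33 are 78.6% of the 42, beside 73.3% of all regions called everywhere. In lists of equal length 20 regions were stronger and 20 weaker (49.4% of all such regions were stronger). Ranked among the regions called in all 4 libraries, 23 were stronger and 19 weaker (49.5%). The cause of these differences between rankings was not tested. Between the libraries numbered 1 the median difference was -0.40, with 23 regions stronger and 19 weaker, and between those numbered 2, where the iTreg+PBS list is the shortest, it was -5.16, with 36 stronger and 6 weaker.

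In 6 of the 42 regions (14.3%), both iTreg+IL-4 ranks were stronger than both iTreg+PBS ranks, beside 19.7% of all regions called in all 4 libraries, and in 0 regions both were weaker, beside 5.18%. Both shares were below those of the genome. The 6 were the Tmem91 start site near Tgfb1, both Lrrc32 regions described above, both Itgae regions and a region 13894 bases upstream of Ltbp3 within 1 kb of start sites of Gm16538 and Ehbp1l1, which ranked 28.2 and 24.0 without IL-4 against 23.9 and 23.8 with IL-4. The Itgae intronic region and the Gm16538 region are named here after their values were seen. Ranked by height the same 6 regions were found to be stronger and 0 weaker, beside 20.4% and 4.42% of all regions called in all 4 libraries. Ranked among the regions in all 4 libraries, 8 were stronger (19.0%, beside 14.3% of all regions) and 3 weaker (7.14%, beside 12.7%), and 4 of the 6 remained, without the upstream Lrrc32 region and the Gm16538 region. With lists of equal length, 40 of the regions still had a peak in every library, of which 7 were stronger (17.5%, beside 14.0% of all regions) and 3 weaker (7.50%, beside 12.5%). The share of stronger regions at these genes thus lay below or above that of the genome, depending on the ranking. Of the 6, 3 remained (the distal Lrrc32 region and both Itgae regions), and the Tmem91 region no longer had a peak in every library. The 3 weaker regions were the same in both of these rankings. With lists of equal length, a region near the Fam171b start site in the Itgav window ranked 26.0 and 25.6 without IL-4 against 32.5 and 28.6 with IL-4. An Itgae intron region centred 17609 bases from the start ranked 47.4 and 43.9 against 47.6 and 62.1, and a region near the Ccdc97 start site in the Tgfb1 window 11.9 and 12.1 against 12.3 and 12.6. These 3 are also named after their values were seen. Of the 42 differences, 11 exceeded their pooled SD, and the lowest adjusted p was 1.

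As in the genome, regions at start sites were called in all 4 libraries more often than the others. Of the 16 regions at a start site of another gene only, 13 (81.2%) were called in all 4 libraries, and of the 13 at a start site of the 7 genes, 9 (69.2%). Of the 48 farther than 1 kb from any start site, 20 (41.7%) were. Together, 22 of the 29 regions at a start site of any gene were called in all 4 libraries (75.9%, beside 73.3% of all such regions on assembled chromosomes), and the 41.7% elsewhere stand beside 43.7%, so these shares are near those of the genome. By the annotation at their centres, 26 regions lay in introns of the 7 genes, 5 in their UTRs, 2 in exons of their noncoding transcripts and 44 outside them. The 77 regions had a median width of 483 bases and a GC content of 53.0%, beside 457 bases and 49.5% for all regions on assembled chromosomes. Regions in all 4 libraries were wide, with a median of 803 bases at these genes and 688 in the genome, and the others were narrow, with 259 and 283 bases. These are widths of merged regions, which peaks from further lists can only widen, so part of this contrast comes from the merging.

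A list of 21 other genes of TGF-β production, storage and release and of integrin activation was examined for peaks within 1 kb of a start site. Such peaks were found in all 4 libraries at 16 of these genes (76.2%) and at 6 of the 7 above, beside 59.9% of 21938 protein-coding genes. They included Tgfb3, the third isoform of the cytokine, with ranks of 20.2 and 21.3 without IL-4 against 21.0 and 23.6 with IL-4. Itgb7, which encodes the partner of CD103, ranked 25.2 and 47.8 without IL-4 against 26.3 and 41.5 with IL-4. Nrros, which encodes a surface tether of latent TGF-β1 on myeloid cells, ranked 13.9 and 21.4 without IL-4 against 12.7 and 14.9 with IL-4. The conditions overlapped at all 3. The other genes open in all 4 libraries were Tgfb2, Ltbp1, Ltbp2, Ltbp4, Itgb1, Itgb3, Itgb5, Itga8, Thbs1, Mmp9, Pcsk7, Tln1 and Fermt3, while Itgb6, Mmp2, Pcsk5 and Pcsk6 had no such peak in any library.

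Of the 16, 2 (named after their values were seen) had ranks that did not overlap, both stronger with IL-4, as did 2627 of the 13148 protein-coding genes with such peaks in all 4 libraries; the reverse was found at 0 of the 16 and at 738 of the 13148. Tln1, the gene of talin, which switches integrins on from inside the cell, ranked 3.86 and 3.86 without IL-4 against 2.35 and 3.25 with IL-4. Ltbp2, of the matrix family of Ltbp3, ranked 19.1 and 23.6 without IL-4 against 16.1 and 16.7 with IL-4. Mmp14, which encodes a membrane-bound metalloprotease, was the only gene of the list with a start-site peak in both libraries with IL-4 and none without it, a pattern of 0.346% of protein-coding genes. Its peaks were weak, with ranks of 75.2 and 76.9, and the pattern was lost with lists of equal length and with a window of 2 kb. No gene of the list had the reverse pattern, which 0.0684% of protein-coding genes had.

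**Figure D4:**
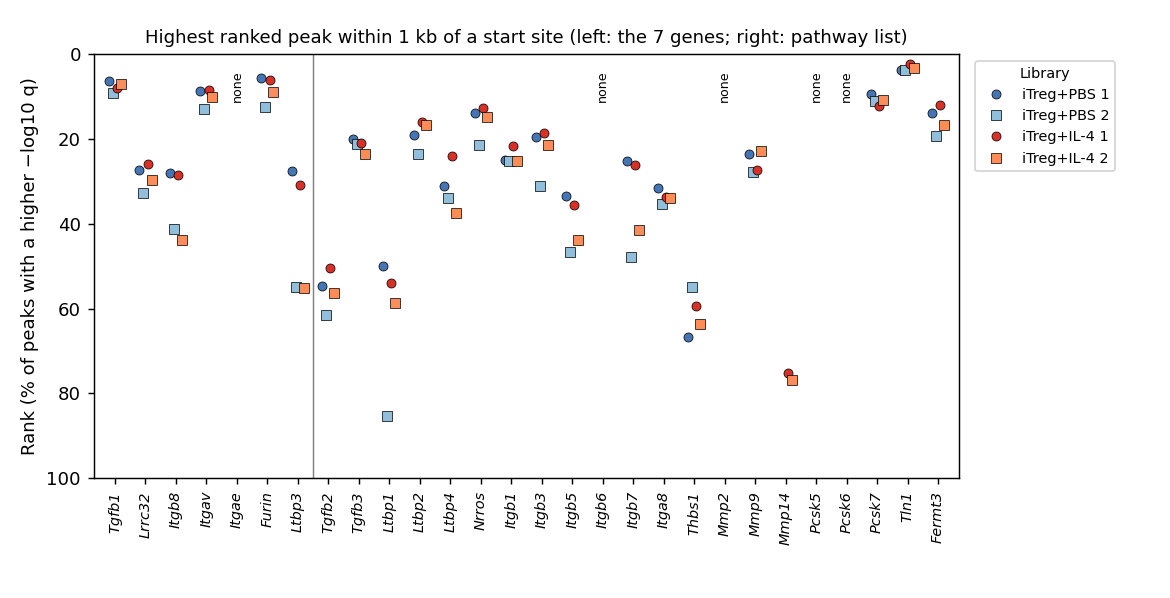
Rank of the strongest peak within 1 kb of a start site (y axis, % of peaks in the list with a higher −log10 q, the strongest at the top) for the 7 genes and the 21 genes of the list, a point for each library. Itgae, Itgb6, Mmp2, Pcsk5 and Pcsk6 have no point, and Mmp14 has points for the iTreg+IL-4 libraries only, at 75.2 and 76.9.

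Motifs of transcription factors were searched on both strands in a window of 200 bases centred on each region, as a description of sequence and not of binding. STAT6, the transcription factor activated by IL-4, binds palindromes of the form TTCNNNNGAA, where N is any base. A match was found in 3 of the 77 regions (3.90%), beside 5.84% of all regions. Of these, 1 was called in all 4 libraries, the Furin region centred 5068 bases upstream of the start, with ranks of 46.4 and 83.6 without IL-4 against 53.4 and 79.6 with IL-4. The match, TTCCCCTGAA at chr7:80410516-80410525, stands in capitals in the printed sequence, along with a match each to AP-1 and RUNX. Another STAT6-type match lay past the end of Furin, 27803 bases downstream of its start, in a region with a peak in iTreg+IL-4 replicate 2 and no other library, and the last in a region 16224 bases upstream of Ltbp3 that was called in replicate 1 of both conditions. None of the 6 regions whose ranks were stronger with IL-4 held a STAT6-type match in the 200 bases searched. With 5.84% of all regions matching, 6 regions are too few for this to set them apart.

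The STAT5-type palindrome TTCNNNGAA, the form bound downstream of IL-2, matched in 11 regions (14.3%, beside 8.48% of all regions), and with 400 bases searched the shares were closer, 16.9% beside 14.6%. The AP-1 motif TGANTCA matched in 12 regions (15.6%, beside 12.9%), and the RUNX motif TGTGGT in 14 (18.2%, beside 21.4%). The GATA motif AGATAA matched in 4 (5.19%, beside 7.87%). The motif CAGACA, bound by the SMAD proteins that carry the TGF-β signal, matched in 13 (16.9%, beside 19.4%), and its share exceeded that of all regions, with 36.4% beside 34.0%, when 400 bases were searched. The strongest Furin region held 1 AP-1 and 2 RUNX matches, and the Furin region called only without IL-4 held 1 SMAD match. The printed sequences of Tgfb1 and Lrrc32 held none of these motifs.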

How the data were processed

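ATAC-seq was performed by the authors on 2 iTreg+PBS and 2 iTreg+IL-4 samples, described as pooled and biologically independent. The p-values come from exchanging these libraries between conditions and do not measure the variation between animals. Libraries were sequenced on BGISEQ-500 and mapped to mm10 with Bowtie2 2.2.5, mapped pairs were kept, and peaks were called in each library with MACS2 2.1.2; bedtools 2.16.2 is also named in the submitters' processing notes. Correction of transposase offsets and removal of duplicate and mitochondrial reads are not given in the sources used here; these steps could move peak edges, heights and q-values.

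Each deposited list gives positions, a value read as −log10 of the q-value (lowest 1.31 in each list) and a pileup signal read as the height, both meanings inferred from the values and neither scaled between libraries, so only ranks within a list were compared. Gene windows came from RefSeq, start sites and annotation from GENCODE M21, and sequence from GRCm38. Conditions and replicate numbers came from the sample labels. Analyses used Python 3.11.15, numpy 2.4.6, pandas 2.3.3, scipy 1.17.1, pysam 0.24.0 and samtools 1.23.1, and the counting was tested on simulated lists. The Benjamini-Hochberg method was used to adjust p-values.

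The 7 genes and the lists were chosen with earlier results of these data known. Regions were named where a peak lay within 1 kb of a start site of the 7 genes, where both libraries of 1 condition only had a peak, and, per gene, for the best mean rank and the largest difference of mean rank. Alternatives kept the upper 50% of each list, made lists equal in length, required a reciprocal overlap of 50%, used windows of 0, 10 or 50 kb, motif windows of 400 bases, left out each library, or took the replicate number as a block. Some items that these rules name are not reported here. Expression data were not analysed here.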

Additional observations from a re-analysis of the deposited data

How the results depend on the processing

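Of 160 alternative values, 110 kept their sign or, for a count, stayed within 1.5 times; 24 counts moved and 26 differences changed sign, 17 of them with 1 library left out; the cause was not tested. With the upper 50% of each list, the difference in the number of peaks (iTreg+IL-4 minus iTreg+PBS) was 3.5, that in bases 257.5 at Itgb8 and 354.5 at Furin, and 22 regions were called in all 4 libraries (beside 60.5% of all regions), 0 only without IL-4 (0.301%), and 3 had ranks stronger with IL-4 (19.7%). With lists of equal length, the rank difference was 0.0565, that in bases at Itgb8 40.5, 2 regions were called only without IL-4 (at Tgfb1 and Itgav, and not the Furin region; 1.03% of all regions), and 3 ranks were weaker (12.5%). With a reciprocal overlap of 50%, 1 region, at Ltbp3, was called only with IL-4 (2.63% of all regions) and 0 only without (0.861%). Without flanks, the difference at Furin was 28.5 bases, 18 regions were called in all 4 libraries and 3 had stronger ranks; with 10 kb the values were 227 bases and 3 stronger ranks; with 50 kb they were 257 bases, 65 regions in all 4 libraries, 3 only without IL-4, 10 stronger and 2 weaker ranks; the shares over all regions do not depend on the flank. Ranked among regions in all 4 libraries, 3 ranks were weaker (12.7%). The pathway list had 0 genes with a start-site peak only with IL-4 in the upper 50%, in equal lists and with a window of 2 kb. The SMAD share minus that of all regions was 2.4 percentage points with 400 bases. Some of these alternatives, on ranks and on start-site peaks, were chosen after the data were seen.

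Leaving out each library in turn gave 42 to 49 regions in all remaining libraries (beside 55.3% to 62.3% of all regions, the highest of both without iTreg+PBS replicate 2), 0 to 7 only with IL-4 (7 without iTreg+PBS replicate 1, 5 without iTreg+IL-4 replicate 1, 2 without iTreg+IL-4 replicate 2; 13.6%, 7.25% and 11.1% of all regions) and 1 to 6 only without (3 without iTreg+PBS replicate 1, 6 without iTreg+PBS replicate 2, 6 without iTreg+IL-4 replicate 1; 3.25%, 8.21% and 3.20% of all regions). The difference in the number of peaks ran from -8 to 6, in bases from -3921.5 to 6297.5, and in mean rank from -11.1 to 3.66. The number of peaks changed sign without iTreg+PBS replicate 1 (6) or iTreg+IL-4 replicate 2 (3). The bases (-3921.5 and -1942.5) and the mean rank (3.66 and 0.0477) did so without iTreg+PBS replicate 2, and likewise without iTreg+IL-4 replicate 1. By gene, the difference in bases ran from -365.5 to 622.5 at Tgfb1, 76 to 873 at Lrrc32, -400 to 298 at Itgb8, -919 to 1229 at Itgav, -718 to 1580 at Itgae, -1561.5 to 1163.5 at Furin and -569 to 1067 at Ltbp3.

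With the replicate number as a replicate block, the differences were the same (-1 peak, 1188 bases and -4.20 in rank), with exact permutation p of 1, 1 and 0.5, the smallest possible being 0.5. Over 47767 regions, same-numbered libraries deviated together (Pearson's r 0.452, a description across regions), which with 2 pairs does not show that the numbers pair the samples. The unknown depth limits every statement on a missing peak.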
